A study of Mus musculus with 9 samples.

Results

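Messenger RNA levels were compared between N2A cells given MOV10 S970A and N2A cells given MOV10 WT. S970A carries alanine in place of a serine of MOV10, and alanine cannot take up a phosphate, while WT keeps the serine. The comparison holds 6 of the 9 libraries of the series, 3 of S970A and 3 of WT, and all 15977 genes of the deposited table. N2A is a mouse neuroblastoma line, and both groups share the same background, a knockout of MOV10, so MOV10 is supplied by the transfected DNA. The cells received 2 µg of DNA for 24 h before total RNA was taken, and poly(A) RNA was sequenced with strand kept. The labels name 1 knockout background and do not say whether it is a single clone, which species the transfected sequence came from, or whether the replicates were separate cultures. The p-values below therefore measure the spread between these libraries, which may be technical. Depth per library is unknown, because the table holds no counts of reads. S970A replicate 1 stands apart from the 5 other libraries, and results are therefore given for each library and with and without it. Untransfected knockout cells and parental N2A cells were not analysed here, so the values show one form of MOV10 against another and not MOV10 against none.

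MOV10 is an RNA helicase related to UPF1. It binds 3′ untranslated regions, associates with the microRNA effector AGO2 and with FMRP, the RNA-binding protein lost in fragile X syndrome, and is known for influencing which microRNA targets are silenced and for restricting retroelements. The comparison asks whether steady-state mRNA levels depend on whether this serine can be phosphorylated.

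Because MOV10 acts with AGO2 on 3′ untranslated regions, genes were also grouped by matches to the seeds of 4 microRNA families. The mature sequences are from RefSeq (GRCm38.p6), with the seed, bases 2 to 8, in capitals.
mmu-let-7f-5p: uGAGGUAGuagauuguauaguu
mmu-miR-9-5p: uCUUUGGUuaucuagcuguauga
mmu-miR-17-5p: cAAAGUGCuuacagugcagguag
mmu-miR-125b-5p: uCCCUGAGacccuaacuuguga
The 4 seeds differ from one another, so the 4 microRNAs fall into 4 seed groups. The let-7 family restrains growth and stem-cell genes such as Lin28b, miR-9 and miR-125b are abundant in neural cells, and miR-17 belongs to a cluster driven by MYC proteins. The seed matches searched on the transcript strand only were CTACCTC for let-7f, ACCAAAG for miR-9, GCACTTT for miR-17 and CTCAGGG for miR-125b. Of 12943 annotated 3′ untranslated regions, 9.21% held the let-7f match, 11.9% the miR-9 match, 12.8% the miR-17 match and 14.0% the miR-125b match. A match is a run of letters and not a shown binding site.

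No gene passed the test of S970A against WT across all genes. The count was 0 higher and 0 lower of 15977 genes (0.0%) at an adjusted p under 0.05, by limma with moderated variances and Benjamini-Hochberg adjustment, and the lowest limma adjusted p was 0.841. Without adjustment, 186 genes (1.16%) had a limma p under 0.05, of which 98 lay higher and 88 lower in S970A. Every S970A library lay above every WT library in 495 genes (3.1%) and below every WT library in 530 genes (3.32%), so the groups did not overlap in 1025 genes (6.42%). The median difference over all genes was -0.01 on the log2 scale.

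How large a difference these libraries leave possible varied by gene. The median standard error of the difference was 0.283 on the log2 scale, and the 95% interval reached a median of 0.675 to either side of the difference. For 8936 genes (55.9%) the whole interval lay within a change of 2 times in either direction. For the other genes a difference over 2 times between S970A and WT was not excluded by the interval, and a p-value above the threshold does not show that their levels were equal.

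S970A replicate 1 stood apart from the 5 other libraries. The first principal component of the log2 CPM values (reads of a gene scaled to the size of the library, on a log2 scale), computed without Mov10, held 65.0% of the variance, and on it S970A replicates 1, 2 and 3 scored 95.6, -7.43 and -27.9, against 21.7, -32.6 and -49.4 for WT replicates 1, 2 and 3. S970A replicates 2 and 3 fell inside the range of the WT libraries on this component, and S970A replicate 1 lay far above it. Over all genes, the median absolute log2 difference was 0.580 between S970A replicates 1 and 2 and 0.659 between S970A replicates 1 and 3, but 0.162 between S970A replicates 2 and 3. S970A replicate 3 and WT replicate 2 were the closest pair, at 0.133. Among the WT libraries, replicate 1 was the most distant, at 0.317 from replicate 2 and 0.404 from replicate 3, while WT replicates 2 and 3 differed by 0.171. The library nearest to S970A replicate 1 was WT replicate 1, at 0.429.

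**Figure D1:**
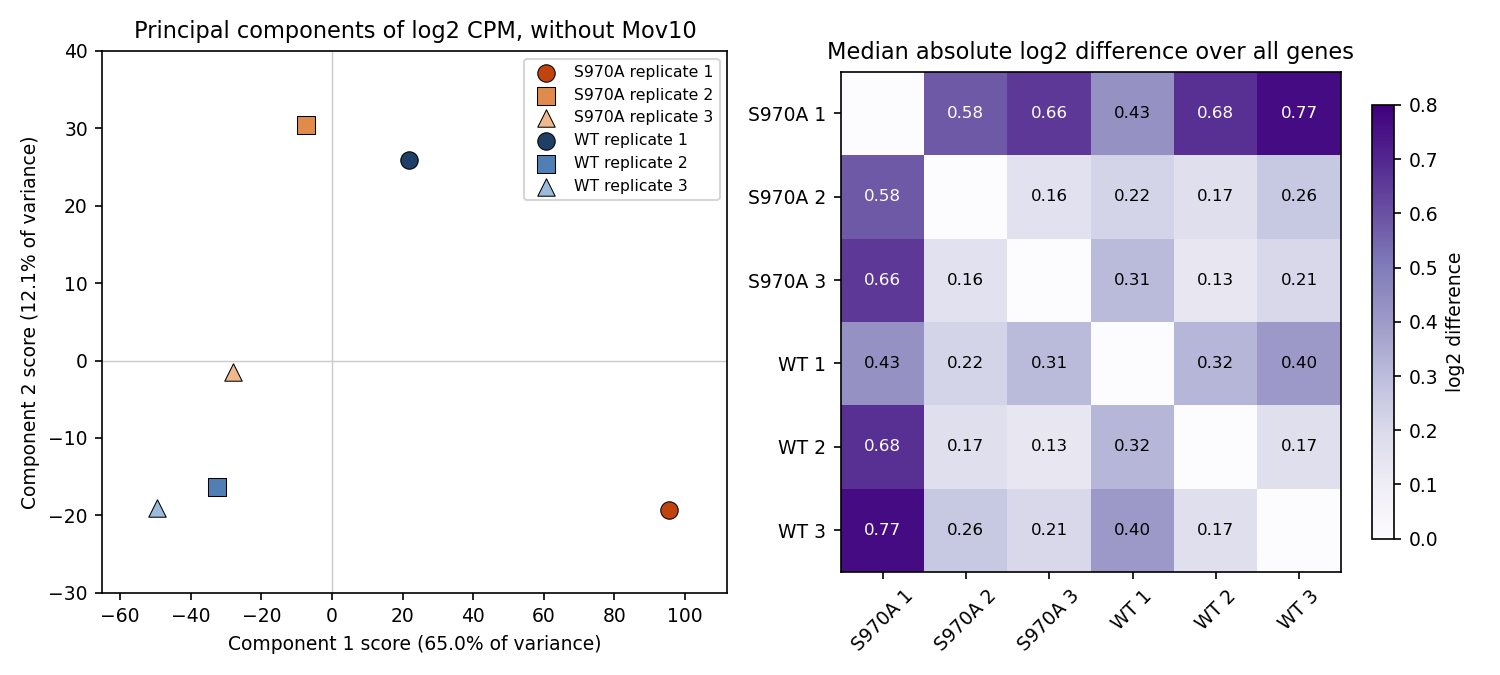
The left plot gives the scores of the 6 libraries on the first 2 principal components (arbitrary units), and the right plot gives the median absolute log2 difference over all genes for each pair of libraries. S970A replicate 1 sits at 95.6 on component 1, away from all others, and S970A replicates 2 and 3 differ from each other by 0.162.

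Counted gene by gene, S970A replicate 1 was more than 2 times above the WT mean in 1951 genes (12.2%) and more than 2 times below it in 2185 genes (13.7%), together 4136 genes (25.9%). S970A replicate 2 was that far above the WT mean in 140 genes (0.876%) and below it in 274 genes (1.71%), together 414 genes (2.59%). For S970A replicate 3 there were 232 genes above (1.45%) and 184 below (1.15%), together 416 genes (2.6%). The distant genes of S970A replicate 1 were thus about as many above as below. The same distance of a WT library from the mean of the other 2 WT libraries was passed in 1091 genes (6.83%) for replicate 1, 525 genes (3.29%) for replicate 2 and 676 genes (4.23%) for replicate 3. Set against the WT mean, S970A replicates 2 and 3 thus had fewer distant genes than each WT library had against its fellows, although a mean of 3 libraries is steadier than a mean of 2.

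**Figure D2:**
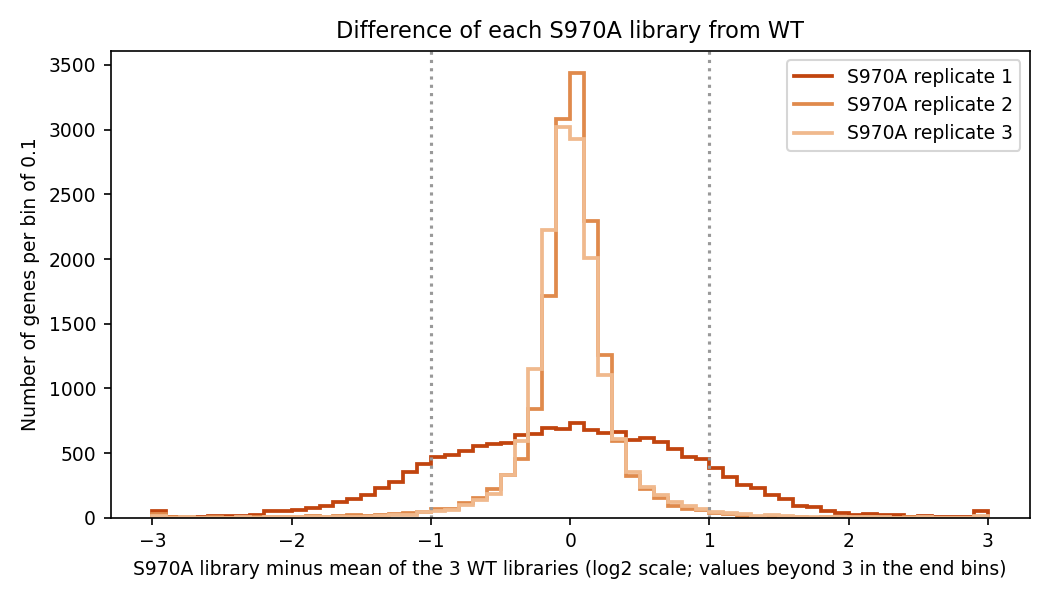
Number of genes (bins of 0.1) against the difference of each S970A library from the mean of the 3 WT libraries on the log2 scale, with dotted lines at a change of 2 times. The curve of S970A replicate 1 is broad, with 4136 genes outside the lines, and those of S970A replicates 2 and 3 are narrow, with 414 and 416.

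With S970A replicate 1 left out, the comparison of S970A replicates 2 and 3 with the 3 WT libraries again gave 0 genes (0.0%) at a limma adjusted p under 0.05, with a lowest limma adjusted p of 1 and 215 genes (1.35%) at an unadjusted p under 0.05. The median absolute difference over all genes was then 0.108, against 0.232 with all 6 libraries. The 95% interval lay within a change of 2 times for 12400 genes (77.6%). Groups did not overlap in 1098 genes (6.87%) on the higher side and 1047 genes (6.55%) on the lower side.

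Mov10 (ENSMUSG00000002227.15, protein-coding, GRCm38 chromosome 3, 104794836 to 104818563, minus strand) was the most abundant transcript in each of the 6 libraries. S970A replicates 1, 2 and 3 had 14.62, 15.24 and 15.42 log2 CPM of Mov10, against 14.90, 15.49 and 15.71 in WT replicates 1, 2 and 3. In both groups replicate 1 was lowest, and the groups overlapped. The gene took 2.35%, 3.99% and 4.58% of the summed CPM in S970A and 3.16%, 4.81% and 5.45% in WT. The difference was -0.28 ± 0.31 (SE, n = 3 each) with a 95% interval from -1.02 to 0.47, a ratio of 0.826 (limma adjusted p = 0.841). By an exact permutation test, two-sided, p was 0.5, where 3 against 3 cannot go below 0.1. Transcripts of the transfected DNA and of the cells' own disrupted gene cannot be told apart in this level, and it does not report on the protein or on its phosphorylation.

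The 5 next most abundant transcripts differed little between groups. Eef1a1, the elongation factor that brings aminoacyl-tRNA to the ribosome, had 12.99, 12.80 and 12.80 log2 CPM in S970A and 12.84, 12.76 and 12.76 in WT, a difference of 0.08 ± 0.16 (SE, limma adjusted p = 0.871). Hsp90ab1, a cytosolic chaperone, had 12.67, 12.49 and 12.46 log2 CPM in S970A and 12.50, 12.54 and 12.52 in WT, a difference of 0.02 ± 0.16 (SE, limma adjusted p = 0.969). The mitochondrially encoded mt-Atp6 and mt-Co2 differed by 0.10 and -0.04. For mt-Cytb, a subunit of respiratory complex III, S970A replicate 1 had 12.02 log2 CPM and S970A replicates 2 and 3 had 13.04 and 13.32, against 12.62, 13.19 and 13.20 in WT. The spread of mt-Cytb among the S970A libraries was larger than its difference between the groups, -0.21 ± 0.37 (SE, limma adjusted p = 0.853).

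The identity of the cells was checked with sympathetic and neuroblastoma genes. Hand2, a transcription factor of sympathetic neurons, had 10.31, 9.40 and 9.29 log2 CPM in S970A and 9.65, 9.19 and 9.03 in WT. Th, which makes the catecholamine precursor L-DOPA, was below 0 log2 CPM in every library, at -1.19, -1.04 and -1.27 in S970A and -1.31, -1.91 and -1.90 in WT. This sympathetic transcription factor was thus abundant, and the transmitter enzyme was below 0 log2 CPM, in both groups.

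Of markers of other cell types, 4 of 20 macrophage and leukocyte genes were in the table, 3 of them under 1 CPM in every library. Fibroblast markers were represented by 8 of 20 genes, endothelial by 9 of 18, epithelial by 7 of 20, muscle by 11 of 20 and Schwann and glial markers by 8 of 20. Their median differences in S970A replicates 1, 2 and 3 were 1.04, 0.15 and -0.01 for the muscle list, whose measured members have a median transcript length of 1200 bases, and -0.44, 0.11 and 0.14 for the Schwann and glial list. The summed CPM of the muscle list was 503, 354 and 320 in S970A replicates 1, 2 and 3 and 392, 346 and 355 in WT, and Myh3, the embryonic myosin heavy chain gene, was its highest member, at 8.68, 8.29 and 8.16 log2 CPM in S970A and 8.38, 8.27 and 8.32 in WT. Its difference was 0.05 ± 0.18 (SE, limma adjusted p = 0.917). The defining genes Myod1, Myog and Ckm are not in the table. The part of other cell types in the results was not tested. No marker passed the test.

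The genes that follow are those with the smallest unadjusted p among named genes whose groups did not overlap, 10 in each direction. None passed the test (limma adjusted p = 0.841 for each of the 20), and genes picked for the smallest p tend to overstate their difference. They are given as the genes that separated the 2 groups most steadily in these 6 libraries. Without S970A replicate 1, their differences were 0.47 to 1.02 on the higher side and -0.41 to -2.71 on the lower side, with a limma adjusted p of 1 for each.

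Kctd15 (ENSMUSG00000030499.9, chromosome 7, 34639014 to 34656732, minus strand), which encodes a BTB-domain protein that restrains neural crest formation in zebrafish, had the smallest p on the higher side. It stood at 5.42, 4.89 and 5.28 log2 CPM in S970A and at 4.44, 4.40 and 4.30 in WT. The difference was 0.82 ± 0.18 (SE, 3 libraries each), with an unadjusted limma p of 0.00345 and a limma adjusted p of 0.841, and it was 0.70 with S970A replicate 1 left out. Pik3cd (chromosome 4, 149649168 to 149702571, minus strand), the delta catalytic subunit of phosphoinositide 3-kinase, had 4.94, 4.75 and 5.06 log2 CPM in S970A and 4.47, 4.39 and 4.43 in WT. Its standard deviation was 0.16 in S970A and 0.04 in WT, and the difference between the groups was 0.49 ± 0.15 (SE, limma adjusted p = 0.841).

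Ston2, an adaptor that sorts synaptotagmin into endocytic vesicles, had 4.35, 3.95 and 3.72 log2 CPM in S970A and 3.57, 3.31 and 3.20 in WT. Pam16, a part of the motor that pulls proteins into the mitochondrial matrix, had 5.79, 4.83 and 4.26 log2 CPM in S970A and 3.81, 4.02 and 2.73 in WT. Both genes were highest in S970A replicate 1, and for Pam16 the spread within S970A was as wide as the distance to WT. Pam16 gave the largest difference of the 10, 1.44 ± 0.48 (SE, limma adjusted p = 0.841). Aldoc, the brain form of the glycolytic enzyme aldolase, had 2.73, 2.02 and 1.92 log2 CPM in S970A and 0.44, 1.62 and 1.51 in WT, a difference of 1.03 ± 0.39 (SE, limma adjusted p = 0.841) in which S970A replicate 1 and WT replicate 1 lay furthest from their groups.

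Of the other genes on this side, Vmac, a coiled-coil protein associated with vimentin filaments, differed by 0.79, Klhdc8b, a kelch-repeat protein, by 0.63, the sorting nexin gene Snx22 by 0.72 and the Rap exchange factor-like gene Rapgefl1 by 0.57. Rps18-ps4, which differed by 0.87, is named as a pseudogene of the ribosomal protein gene Rps18. The annotation gives it as a long noncoding RNA, and reads may be shared with Rps18. Vmac, Klhdc8b, Snx22, Pam16 and Rps18-ps4 each overlap another gene on the opposite strand.

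Gstp2 (ENSMUSG00000038155.11, chromosome 19, 4040285 to 4046023, minus strand), a glutathione S-transferase of the pi class, was the gene with the smallest p on the lower side and had the largest difference of the 20. It stood at 1.98, 2.78 and 0.75 log2 CPM in S970A and at 5.26, 3.87 and 4.29 in WT. The difference was -2.64 ± 0.57 (SE, 3 libraries each), with an unadjusted limma p of 0.00285 and a limma adjusted p of 0.841, and it was -2.71 with S970A replicate 1 left out. Gstp2 has a near-identical neighbour, Gstp1, which had 9.35, 8.22 and 7.90 log2 CPM in S970A and 8.41, 7.64 and 7.42 in WT. How reads were split between these copies is uncertain, and Gstp1 lay on average on the other side.

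Gng4, a gamma subunit of heterotrimeric G proteins, had 1.40, 1.10 and 3.15 log2 CPM in S970A and 4.23, 4.04 and 3.20 in WT. S970A replicate 3 all but met WT replicate 3, and the difference was -1.94 ± 0.57 (SE, limma adjusted p = 0.841). Cxcl1, a chemokine that attracts neutrophils, had 2.52, 3.36 and 3.22 log2 CPM in S970A and 3.69, 3.96 and 4.14 in WT, a difference of -0.90 ± 0.26 (SE, limma adjusted p = 0.841). Tnip2, which encodes a protein that binds the NF-κB inhibitor A20, had 3.08, 3.28 and 3.45 log2 CPM in S970A and 3.58, 4.05 and 4.09 in WT.

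Slc10a7, a membrane protein of the bile acid transporter family, had 3.10, 3.82 and 4.30 log2 CPM in S970A and 4.89, 4.71 and 4.79 in WT. Eogt, which adds N-acetylglucosamine to EGF domains of proteins such as Notch receptors, had 2.22, 2.79 and 3.36 log2 CPM in S970A and 3.71, 4.08 and 3.64 in WT. In both genes the WT libraries were tight and the S970A libraries were spread over more than 1 log2 unit. Msantd3 had 5.29, 5.83 and 5.76 log2 CPM in S970A and 6.14, 6.26 and 6.20 in WT, a difference of -0.58 ± 0.19 (SE, limma adjusted p = 0.841). The coiled-coil gene Ccdc112 had 2.92, 3.10 and 2.84 log2 CPM in S970A and 3.53, 3.50 and 3.85 in WT, a difference of -0.68 ± 0.18 (SE, limma adjusted p = 0.841). The centrosomal gene Ninl differed by -1.07 and the zinc-finger gene Zfp874a by -0.88.

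**Figure D3:**
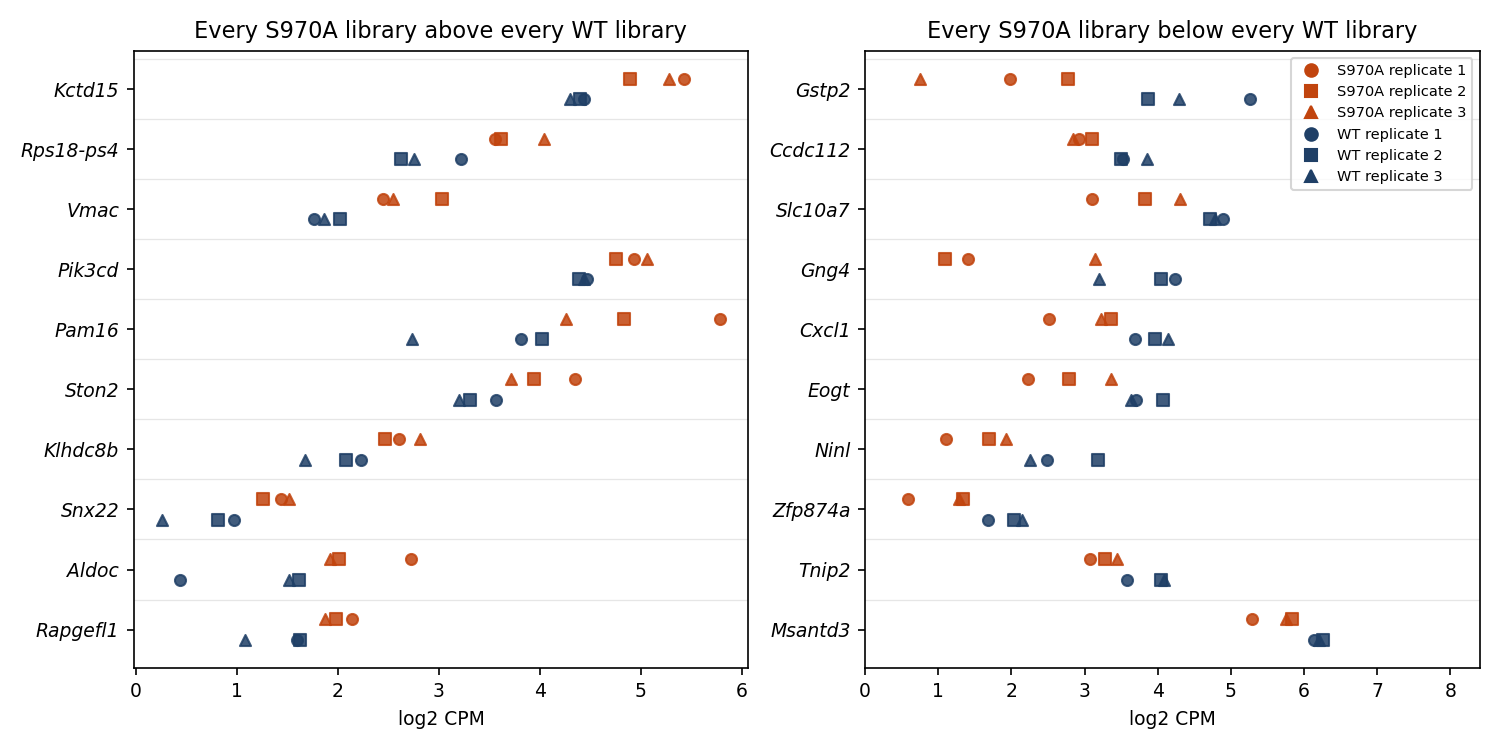
Level in log2 CPM (x axis) of the 20 genes with the smallest unadjusted p among those whose groups did not overlap, with S970A libraries in orange above WT libraries in blue for each gene, and the replicate number given by the marker. For Kctd15 the 3 S970A libraries sit between 4.89 and 5.42, and for Gstp2 they sit between 0.75 and 2.78, below all WT libraries; none of the 20 passed the adjusted test.

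Genes of the pathways in which MOV10 works were taken as lists, and no member of any of the 40 lists passed the test. The differences of S970A replicates 1, 2 and 3 from the WT mean are given apart, because the mean of the 3 follows replicate 1. Over all genes these medians were -0.01, 0.02 and -0.00, and S970A replicates 1, 2 and 3 lay above the WT mean in 49.7%, 54.1% and 49.7% of genes.

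For 28 measured genes that make microRNAs or form the RNA-induced silencing complex the medians were -0.56, -0.00 and 0.06 in S970A replicates 1, 2 and 3. Their median group difference was -0.04 without replicate 1 of both groups. In S970A replicate 1, 7 of the 28 lay above the WT mean, in replicate 2 it was 14 and in replicate 3 it was 18. Ago2, the slicing Argonaute to which MOV10 binds, had 5.76, 6.93 and 7.03 log2 CPM in S970A and 6.66, 6.88 and 6.98 in WT, a difference of -0.27 ± 0.35 (SE, limma adjusted p = 0.841). It was chosen for its role after its values were seen. Only S970A replicate 1 was low, and with that library left out the difference was 0.14. Dgcr8, the RNA-binding partner of Drosha in the nuclear step of microRNA processing, had 4.65, 5.16 and 5.22 log2 CPM in S970A and 5.39, 5.36 and 5.43 in WT. It was the 1 member of the 28 in which every S970A library lay below every WT library, beside 3.32% of all genes. Its difference was -0.39 ± 0.19 (SE, limma adjusted p = 0.841). In 1 member of the 28, Prkra, every S970A library lay above every WT library, beside 3.1% of all genes. Prkra is named for the count after its values were seen. Ago3, another Argonaute, had 4.04, 3.82 and 3.78 log2 CPM in S970A and 3.95, 3.03 and 3.48 in WT, and Tnrc6a, the scaffold that links Argonautes to deadenylases, had 6.10, 7.05 and 7.24 in S970A and 6.85, 7.23 and 7.54 in WT. These 2 genes overlapped between the groups, Ago3 with its mean higher in S970A and Tnrc6a with its mean lower.

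The 10 measured helicases related to MOV10 had medians of -0.65, -0.09 and -0.00 in S970A replicates 1, 2 and 3. Their median group difference was -0.16 without replicate 1 of both groups. Upf1, the helicase of nonsense-mediated decay, had 7.32, 7.93 and 7.83 log2 CPM in S970A and 7.91, 7.85 and 7.84 in WT. It was low in S970A replicate 1 alone, and its difference of -0.17 ± 0.20 (SE, limma adjusted p = 0.841) became 0.02 without that library. Dna2, a nuclease and helicase of DNA replication, had 4.60, 5.04 and 5.10 log2 CPM in S970A and 5.18, 5.18 and 5.20 in WT. It was the 1 member of the 10 with every S970A library below every WT library, beside 3.32% of all genes.

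FMRP and its granule partners, 28 measured genes, had medians of -0.72, -0.11 and 0.01 in S970A replicates 1, 2 and 3. Their median group difference was -0.13 without replicate 1 of both groups. Fmr1, which encodes FMRP, had 4.85, 5.45 and 5.53 log2 CPM in S970A and 5.41, 5.49 and 5.83 in WT, a difference of -0.30 ± 0.23 (SE, limma adjusted p = 0.841). With the dependence on GC content and length taken out of each library, its difference had the opposite sign, 0.07. Elavl1, the ubiquitous member of the family that binds AU-rich elements, had 6.63, 7.19 and 7.36 log2 CPM in S970A and 7.41, 7.51 and 7.61 in WT. It was the 1 member of the 28 with every S970A library below every WT library, beside 3.32% of all genes. Its difference was -0.45 ± 0.22 (SE, limma adjusted p = 0.841).

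The factors of RNA decay showed no common direction in S970A. The 19 nonsense-mediated decay factors had medians of 0.02, 0.06 and -0.06, and the 48 genes of deadenylation, decapping and the exosome had medians of 0.01, -0.01 and -0.03. Upf3b, which tethers the decay machinery to exon junctions, had 5.11, 5.27 and 5.19 log2 CPM in S970A and 5.54, 5.39 and 5.69 in WT, a difference of -0.35 ± 0.15 (SE, limma adjusted p = 0.841). Ttc37, a scaffold of the complex that feeds RNA to the exosome, had 3.94, 4.70 and 4.42 log2 CPM in S970A and 4.85, 4.83 and 4.93 in WT. Both lay below WT in every library without passing the test. This held for 1 of the 19 factors and 2 of the 48 decay genes, beside 3.32% of all genes. Every S970A library lay above every WT library in 0 of the 19 and 2 of the 48, beside 3.1% of all genes. Cnot3, a subunit of the deadenylase complex, had 7.24, 6.65 and 6.81 log2 CPM in S970A and 6.53, 6.66 and 6.53 in WT. The 23 listed substrates of nonsense-mediated decay had medians of 0.52, 0.02 and -0.04. The median of their group differences was 0.20 with all 6 libraries and -0.03 without S970A replicate 1 alone. WT replicate 1, which is kept in that setting, had a median of 0.45 against WT replicates 2 and 3. Without replicate 1 of both groups, the median group difference of the substrates was 0.15. After adjustment of each library for length and GC content it was 0.09.

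Known microRNA targets had medians below 0 in S970A replicate 1 and near 0 in replicates 2 and 3. The 36 measured let-7 targets had medians of -0.35, 0.00 and 0.01 in S970A replicates 1, 2 and 3, and the 35 measured miR-124 targets had -0.46, 0.01 and -0.02. Map4k4, a kinase upstream of JNK, was the 1 let-7 target of 36 with every S970A library higher (beside 3.1% of all genes), at 8.73, 8.50 and 8.55 log2 CPM against 8.31, 8.25 and 7.97 in WT, a difference of 0.42 ± 0.16 (SE, limma adjusted p = 0.841). Dna2, described above, was the 1 let-7 target with every S970A library lower, beside 3.32% of all genes. Actl6a, a subunit of chromatin remodelling complexes and a miR-124 target, had 5.77, 5.85 and 6.06 log2 CPM in S970A and 6.05, 6.48 and 6.70 in WT. Lin28b, which blocks let-7 maturation, had 4.39, 5.42 and 5.44 log2 CPM in S970A and 5.19, 5.58 and 5.76 in WT.

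Across the transcriptome, genes with a let-7f seed match in the 3′ untranslated region (CTACCTC, 1192 genes) had median differences of -0.27, 0.01 and 0.04 in S970A replicates 1, 2 and 3, and genes without it had -0.01, 0.02 and -0.01. Genes with the miR-9 match had -0.41, 0.01 and 0.03, and genes with the miR-17 match had -0.48, -0.00 and 0.04. Genes with the miR-125b match had -0.16, 0.03 and 0.05. In S970A replicates 2 and 3, genes with and without a match therefore had medians at most 0.0620 apart for each of the 4 seeds. Genes with a match have longer 3′ untranslated regions, with medians of 2059 to 2371 bases against 789 to 840 bases for genes without, and length itself moved with S970A replicate 1. Among the 1815 genes with a miR-125b match, every S970A library lay above every WT library in 4.13% and below in 1.76%, against 2.6% and 3.5% of the genes without it. For miR-17 the shares were 1.63% above and 2.77% below with a match, against 2.99% and 3.32% without. For let-7f they were 3.19% and 3.52% with a match, against 2.77% and 3.23% without, and for miR-9 they were 2.78% and 3.17%, against 2.82% and 3.26%. The part of length in this was not tested.

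Retroelement control and innate immunity were examined because MOV10 restricts retroelements. The 32 genes of retroelement control had medians of -0.53, -0.09 and -0.02 in S970A replicates 1, 2 and 3. The 21 genes of cytosolic nucleic acid sensing had -0.70, -0.05 and -0.04. Without replicate 1 of both groups, the medians of the group differences were -0.145 for retroelement control and -0.12 for sensing. Of the sensing genes, Ikbke, a kinase that activates interferon regulatory factors, had -1.84, -1.88 and -1.32 log2 CPM in S970A and -1.26, -0.68 and -0.81 in WT. It was 1 of the 2 sensing genes of 21 with every S970A library below every WT library, beside 3.32% of all genes. In 1 of the 21 every S970A library lay above every WT library, beside 3.1% of all genes. The 44 interferon-stimulated genes had -0.46, -0.09 and -0.13, and 13 to 16 of the 44 lay above the WT mean in each S970A library. In 7 of the 44 every S970A library lay below every WT library and in 0 above, where the table as a whole has 3.32% below and 3.1% above. These 7 were Mx2, Irf9, Ifih1, Herc6, Xaf1, Uba7 and Gbp2, of which Irf9, Herc6 and Gbp2 are named for the count after their values were seen. Uba7, the enzyme that activates the ubiquitin-like protein ISG15, had 0.03, -0.08 and 0.17 log2 CPM in S970A and 1.00, 0.48 and 0.90 in WT, a difference of -0.75 ± 0.23 (SE, limma adjusted p = 0.841). Mx2, which is annotated as a polymorphic pseudogene, had -0.06, 0.27 and 0.46 log2 CPM in S970A and 1.72, 0.50 and 0.60 in WT. For Mx2, WT replicate 1 alone is far above. Ifih1, the sensor MDA5, had 1.60, 2.44 and 2.47 log2 CPM in S970A and 2.51, 2.69 and 2.71 in WT. Xaf1, an interferon-induced promoter of cell death, had 2.49, 2.34 and 2.40 log2 CPM in S970A and 2.99, 2.70 and 2.56 in WT. These 4 genes stood at 2.99 log2 CPM or less in every library, and no interferon-stimulated gene passed the test. The median of the group differences over the 44 was -0.23 with all 6 libraries, -0.10 without S970A replicate 1 and -0.07 without replicate 1 of both groups.

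Genes of inflammation gave 23 measured members with medians of -0.15, -0.02 and -0.03 in S970A replicates 1, 2 and 3. Il6, a cytokine of the acute-phase response, had 3.87, 4.42 and 4.58 log2 CPM in S970A and 4.52, 4.85 and 5.07 in WT. Lif, a cytokine of the same receptor family, had 0.13, -1.20 and -1.06 log2 CPM in S970A and -2.34, -0.89 and -2.33 in WT, a difference of 1.15 ± 0.55 (SE, limma adjusted p = 0.841). The groups of Il6 and of Lif overlapped, with the S970A mean lower for Il6 and higher for Lif.

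Hypoxia and glycolysis genes had medians of 0.08, 0.15 and 0.11 in S970A replicates 1, 2 and 3, above 0 in each. Of its 39 measured genes, 22, 32 and 30 lay above the WT mean in S970A replicates 1, 2 and 3. Every S970A library was above every WT library in 5 of the 39, beside 3.1% of all genes, and below in 0. These were Aldoc, Pgk1, Eno2, Ankrd37 and Higd1a, the last named for the count after its values were seen. Pgk1, the first enzyme of glycolysis to yield ATP, had 8.21, 8.09 and 7.88 log2 CPM in S970A and 7.66, 7.83 and 7.60 in WT, a difference of 0.37 ± 0.16 (SE, limma adjusted p = 0.841). Eno2, the neuronal enolase, had 5.94, 5.36 and 5.34 log2 CPM in S970A and 5.11, 5.21 and 4.94 in WT. Ankrd37, a target of hypoxia-inducible factor, had 4.29, 3.78 and 3.64 log2 CPM in S970A and 3.38, 3.64 and 3.36 in WT. The margin between the groups was narrow for Ankrd37, and the list's median, 0.11, was -0.00 when replicate 1 of both groups was left out.

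Neuronal genes were mixed. The 31 genes of synaptic vesicle release had medians of -0.17, 0.06 and 0.06 in S970A replicates 1, 2 and 3. Syn1, which tethers synaptic vesicles to actin, had 7.08, 6.66 and 6.60 log2 CPM in S970A and 6.47, 6.34 and 6.18 in WT, a difference of 0.45 ± 0.18 (SE, limma adjusted p = 0.841). Unc13a, which primes vesicles for release, had 5.67, 5.91 and 6.74 log2 CPM in S970A and 6.76, 6.82 and 6.77 in WT, a difference of -0.68 ± 0.28 (SE, limma adjusted p = 0.841). The groups of both genes were separated, in opposite directions, and S970A replicate 3 of Unc13a was next to the WT values. Of the 31 genes, every S970A library lay above every WT library in 3, beside 3.1% of all genes. Eno2, given above, is also one of these 3. Every S970A library lay below every WT library in 1 of the 31, beside 3.32% of all genes. The 39 genes of axon guidance had medians of -0.34, 0.08 and 0.12, and Epha2, an ephrin receptor, had -0.06, -0.09 and -0.01 log2 CPM in S970A and 0.28, 1.03 and 0.41 in WT. Casz1, a transcription factor lost in many neuroblastomas, had 4.75, 4.44 and 4.41 log2 CPM in S970A and 4.10, 4.30 and 4.14 in WT.

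Housekeeping and stress lists had medians near 0 in S970A replicates 2 and 3 and wider ones in S970A replicate 1. The 54 translation factors had medians of 0.20, 0.04 and -0.08 in S970A replicates 1, 2 and 3, and the 37 proteasome subunits had 0.51, 0.02 and -0.11. Eif3a, a scaffold of an initiation complex, had 9.25, 8.89 and 9.17 log2 CPM in S970A and 9.35, 9.39 and 9.53 in WT. It was 1 of the 4 translation factors of 54 with every S970A library below every WT library, beside 3.32% of all genes. In 2 of the 54 every S970A library lay above every WT library, beside 3.1% of all genes. The 46 S phase genes had medians of 0.22, 0.02 and -0.10, and the 51 genes of G2 and mitosis had -0.19, -0.03 and -0.03. The 26 genes of the unfolded protein response had 0.07, -0.01 and -0.02, the 29 ATF4 targets had 0.07, 0.05 and -0.00, and the 20 heat shock genes had 0.17, -0.06 and -0.04. For 21 p53 targets they were -0.34, -0.03 and -0.05. The 35 genes of cholesterol and fatty acid synthesis had -0.33, 0.07 and 0.09. In S970A replicates 2 and 3 all of these medians lay between -0.11 and 0.09.

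Set against the WT mean, the lists with the medians furthest from 0 in S970A replicate 1 lay much nearer 0 in S970A replicates 2 and 3. The 87 cytosolic ribosomal protein genes had medians of 1.11, 0.18 and -0.13 in S970A replicates 1, 2 and 3, with 86, 77 and 16 of the 87 above the WT mean. The 82 nuclear genes of oxidative phosphorylation had medians of 0.96, 0.15 and -0.11, and the 78 mitochondrial ribosomal proteins had 0.85, 0.10 and -0.10. The 52 replication-dependent histone genes, whose mRNAs mostly lack a poly(A) tail, had 1.35, 0.22 and -0.19. The 13 mitochondrially encoded mRNAs had -0.81, 0.07 and 0.15. Against the WT mean, in S970A replicate 3 each of these 5 medians had the opposite sign to S970A replicate 1. The WT mean includes WT replicate 1, whose medians against WT replicates 2 and 3 were 0.77, 0.60, 0.54, 0.85 and -0.38. By summed CPM, S970A replicate 3 lay above WT replicates 2 and 3 in each of the 5 lists. It lay below WT replicate 1 in all but the mitochondrially encoded mRNAs. Without replicate 1 of both groups, the median group differences of the 5 lists were 0.27, 0.21, 0.16, 0.28 and -0.01, in the order given. The 2 groups were separated in 0 of the 87 cytosolic ribosomal protein genes and 0 of the 82 oxidative phosphorylation genes, beside 6.42% of all genes. Among the 78 mitochondrial ribosomal proteins every S970A library lay below every WT library in 3, beside 3.32% of all genes, and above in 0. These 3 were Mrps5, Mrps22 and Mrps31, of which Mrps5 and Mrps22 are named for the count after their values were seen.

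**Figure D4:**
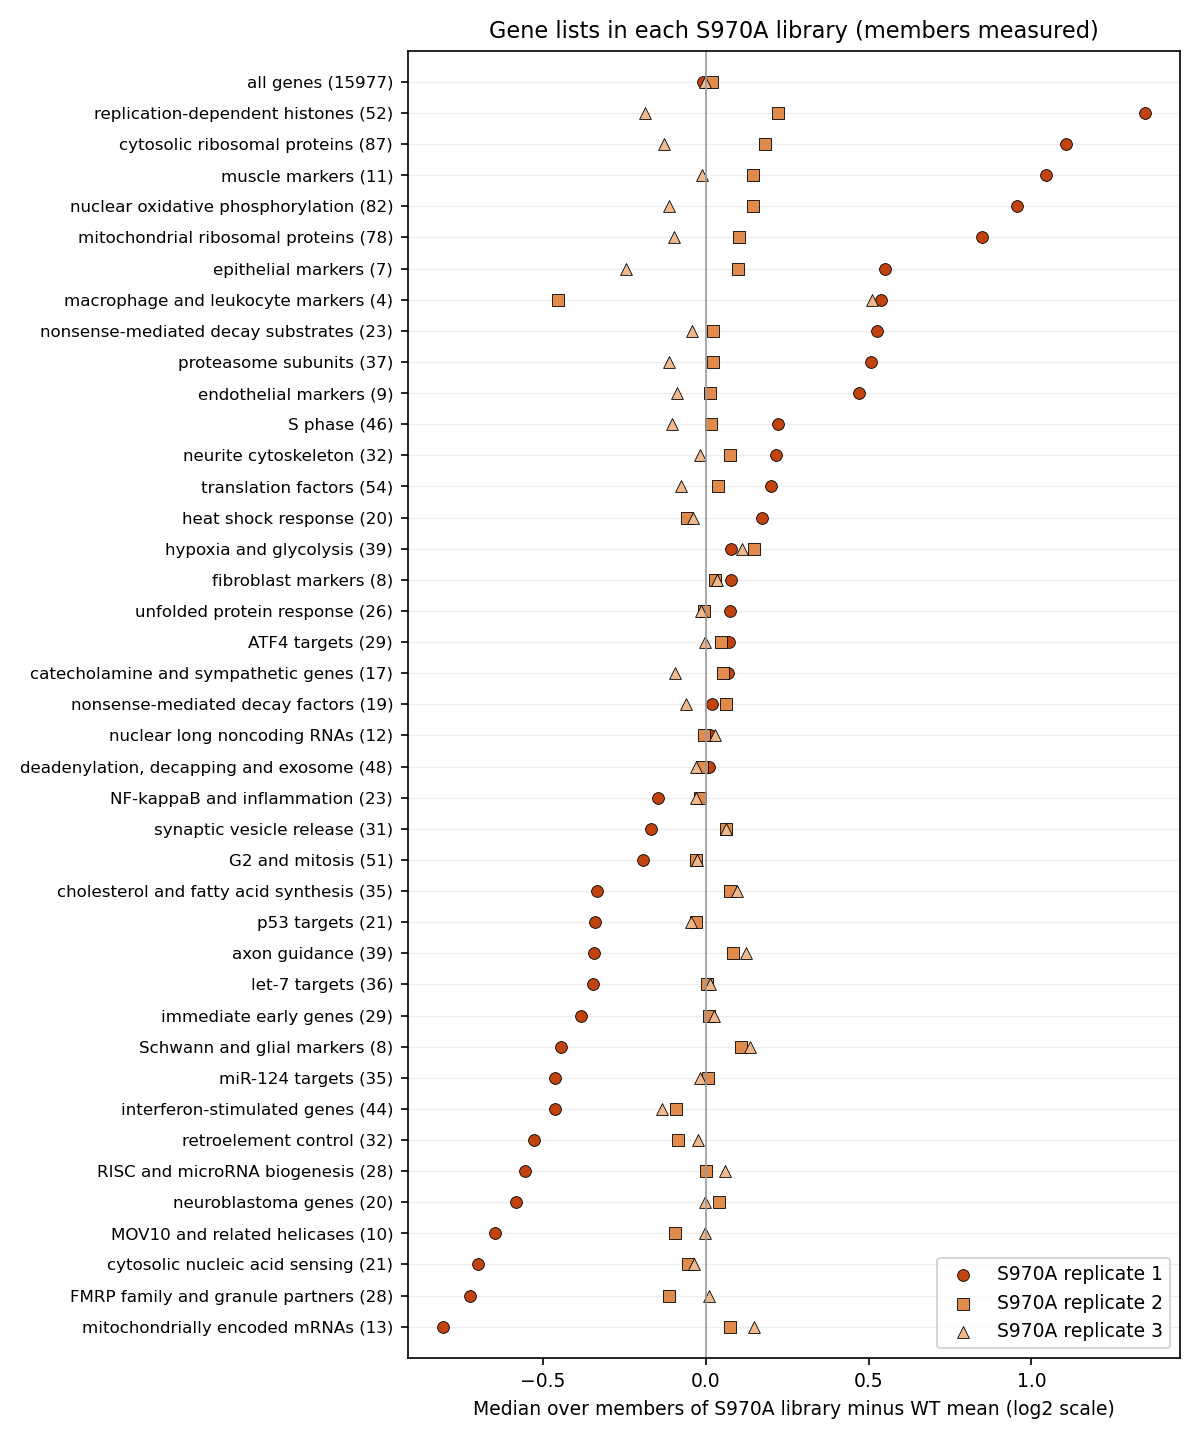
Median over the measured members (number in brackets) of the difference of each S970A library from the WT mean, on the log2 scale, for all genes and for the 40 gene lists ordered by S970A replicate 1. The lists spread from -0.81 to 1.35 in S970A replicate 1, while most medians of S970A replicates 2 and 3 lie near 0.

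Transcript length and GC content moved with S970A replicate 1. Across 13253 coding genes the difference of S970A replicate 1 from the WT mean had a Spearman rho of -0.500 with transcript length and 0.538 with GC content. The same values were -0.122 and 0.279 for S970A replicate 2, and 0.243 and 0.040 for S970A replicate 3. The difference of WT replicate 1 from WT replicates 2 and 3 gave -0.495 and 0.352. These are descriptions across genes, which are not independent, and the differences of the 3 S970A libraries share the same WT mean. In the quintile of genes with the shortest transcripts, of median length 1156 bases, the median difference was 0.70, 0.08 and -0.08 in S970A replicates 1, 2 and 3. In the quintile with the longest transcripts it was -0.63, 0.00 and 0.07. In the quintile with the lowest GC content it was -0.71, -0.05 and -0.02, and in the quintile with the highest it was 0.58, 0.10 and 0.00. With the trend over both properties removed from each library, 0 genes again passed the limma test, and the medians of the group differences lay nearer 0 for several lists. They were then 0.19 for the cytosolic ribosomal proteins, against 0.38 before, and 0.01 for the histones, against 0.31 before. For the genes of microRNA processing and silencing the median was -0.05, against -0.18, and for the interferon-stimulated genes -0.13, against -0.23. For the genes of hypoxia and glycolysis it was 0.12, against 0.11.

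**Figure D5:**
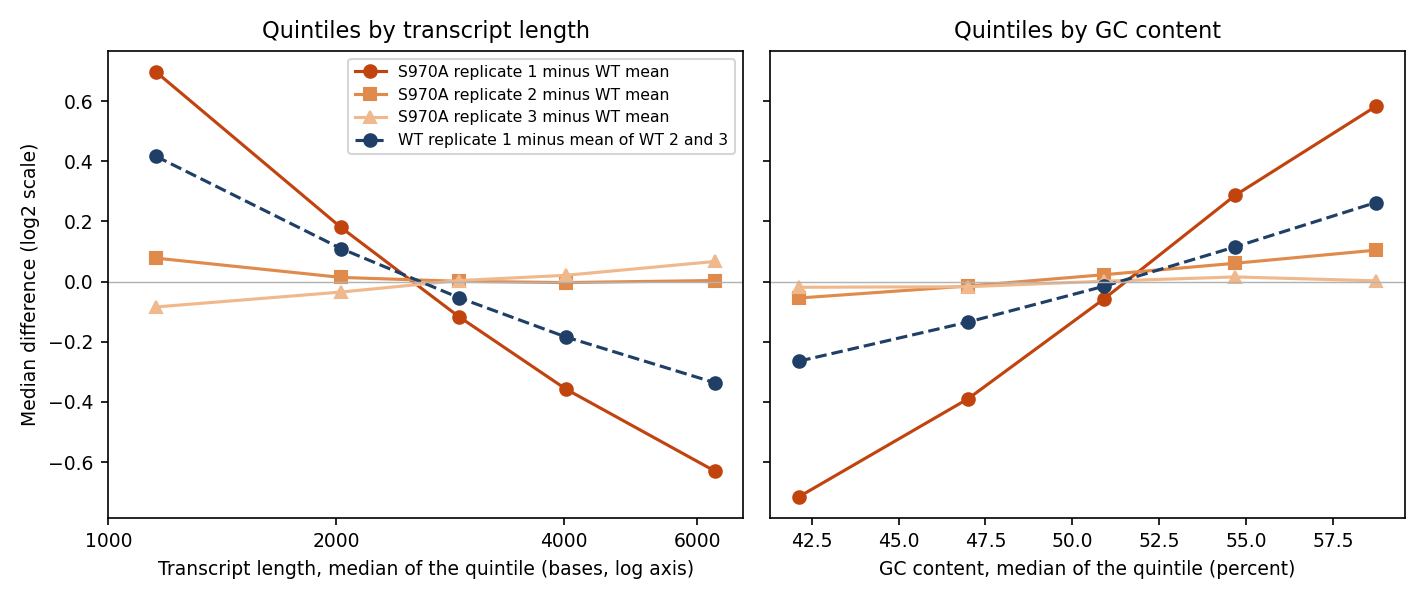
Median difference on the log2 scale (y axis) in quintiles of the coding genes by transcript length (left, bases on a log axis) and by GC content (right, percent), for each S970A library against the WT mean and, dashed, for WT replicate 1 against the other WT libraries. S970A replicate 1 runs from 0.70 to -0.63 over the length quintiles, WT replicate 1 runs the same way over a smaller range, and S970A replicates 2 and 3 stay close to 0.

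The authors' deposited table gives 1 of 4 cluster colours to 6419 of the genes, and the sources used here do not say how. The colours may have been set on these libraries. Genes coloured blue in the authors' deposited table (2194) had median differences of 0.97, 0.16 and -0.00 in S970A replicates 1, 2 and 3, and the brown genes (785) had 0.83, 0.05 and -0.17. The turquoise genes of the authors' deposited table (2956) had -0.92, -0.04 and 0.04. The yellow genes (484) had -0.89, -0.18 and -0.16, the one colour for which all 3 S970A libraries were below WT by more than 0.1. Every S970A library lay below every WT library in 145 of the yellow, 106 of the turquoise, 10 of the brown and 0 of the blue genes, beside 3.32% of all genes. Every S970A library lay above every WT library in 0 of the yellow, 3 of the turquoise, 10 of the brown and 182 of the blue genes, beside 3.1% of all genes. Since the colours may have been set on these libraries, nothing is read from these counts. The 9558 genes without a colour had medians of 0.03, 0.01 and 0.00, with 300 separated above and 269 below.

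Single genes that part S970A replicate 1 from S970A replicates 2 and 3 included pseudogene copies and overlapping genes. Rpl10a-ps1 and Sms-ps, processed pseudogenes of a ribosomal protein gene and of spermine synthase, were at the lowest value of the table, -4.09 log2 CPM, in S970A replicate 1. Rpl10a-ps1 had 7.04 and 7.64 log2 CPM in S970A replicates 2 and 3 and 6.03, 7.49 and 6.84 in WT, and Sms-ps had 4.79 and 5.01 in S970A replicates 2 and 3 and 4.52, 5.43 and 5.68 in WT. How reads were shared between these copies and their parent genes is uncertain, so their absence from 1 library is listed and not read as loss of a transcript.

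Serf2 and Hypk are neighbours that overlap on the plus strand of chromosome 2 and lay on opposite sides. Serf2 had 10.05, 7.57 and 7.06 log2 CPM in S970A and 8.81, 7.10 and 6.90 in WT. Hypk, a partner of the N-terminal acetyltransferase complex, had 2.59, 7.06 and 6.80 log2 CPM in S970A and 6.39, 6.89 and 6.91 in WT. The division of reads between them is uncertain. Castor2, a relative of the arginine sensor CASTOR1, had 6.26 log2 CPM in S970A replicate 1, 2.98 and 3.13 in S970A replicates 2 and 3, and 2.74, 2.91 and 3.05 in WT. Rpl27, a ribosomal protein, had 10.68, 7.76 and 7.61 log2 CPM in S970A and 8.17, 7.38 and 6.98 in WT. Nutf2-ps1 had 7.64, 5.16 and 3.78 log2 CPM in S970A and 6.29, 3.66 and 2.55 in WT, so that the WT libraries were spread as widely. Rn7s1 had 6.20, 3.76 and 2.77 log2 CPM in S970A and at most 3.90 in WT. Pagr1a had 5.61, 1.06 and 4.27 log2 CPM in S970A and 4.93, 4.07 and 3.46 in WT, so that here S970A replicate 2 was the library far from the others.

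On the low side, Gga3, an adaptor for sorting at the trans-Golgi network, had 3.83, 7.51 and 8.01 log2 CPM in S970A and 3.96, 8.09 and 8.32 in WT. B4galt5, which makes lactosylceramide, had 3.17, 6.47 and 6.72 log2 CPM in S970A and 4.28, 6.90 and 6.75 in WT. In both genes replicate 1 was low in S970A and in WT alike. Dync1li2, a light intermediate chain of dynein, had 5.14, 7.95 and 8.53 log2 CPM in S970A and 7.70, 7.77 and 8.48 in WT, and was low in S970A replicate 1 alone.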

How the data were processed

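The authors deposited 1 table of log2 CPM for 15977 genes, with each library in a column of its own. Per the submitters' processing notes, the build was GRCm38 and the tools included R 3.6.3, Salmon 1.1.0 and bcl2fastq 2.20. The prior count, scaling and filter are not stated in the sources at hand. Read counts were not recovered from the values, so depth and counting error are unknown. The lowest value is -4.09 in each of the 6 libraries, at 50 to 80 genes each, and fold changes of low genes are understated. CPM summed to 1069215 in S970A replicate 1, against 955214 to 981473 in the 5 other libraries. The authors' deposited cluster colours, an annotation, were used as labels only.

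limma 3.58.1 in R 4.3.3 was fitted to the deposited log2 values of the 6 libraries, all genes, with group as the only term, 4 residual degrees of freedom, and an intensity trend. Its p-values were two-sided, adjusted by Benjamini-Hochberg over all genes and called under 0.05. The level of Mov10 also had an exact permutation test. Lists were described by counts and medians, with no set test. GENCODE vM21 (GRCm38) gave coordinates, lengths, GC content and 3′ untranslated regions, from the transcript with the longest coding sequence, and 15959 IDs matched (99.9%). Replicate numbers are shared by the groups without stated meaning: deviations of same-numbered libraries correlated at 0.59, 0.07 and 0.49, not all over 0.1, so they were not taken as pairs.

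Named genes were Mov10, the 10 per direction with separated groups, a mean of at least 1 log2 CPM and the smallest p (no predicted models), the 6 per direction that part S970A replicate 1 most from replicates 2 and 3, list members with the largest test statistic (up to 4 per list, 8 for MOV10 pathway lists), the 5 most abundant genes and the highest marker of each other cell type; Ago2 and Gstp1 were added. The members, lists and tests were chosen with earlier results of these data known. A few genes of these rules are not reported here.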

Additional observations from a re-analysis of the deposited data

How the results depend on the processing

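The count of 0 genes was also given by a pseudocount of 1 CPM, a filter at a mean of 1 log2 CPM, quantile normalization, median centring, other variance priors, removal of the trend over GC content and length (268 genes at an unadjusted p under 0.05) and leaving out libraries, where the count ranged from 0 to 1 (Gm9797, without WT replicate 1), with 85 to 377 genes at an unadjusted limma p under 0.05. Without replicate 1 of both groups it was 5: Gm9797, Hist1h2ao and Ppp1ccb lower, Gm15387 and Gm10297 higher. With limma library weights it was 7661, and Mov10 then differed by -0.25 (limma adjusted p = 0.0263); the estimation of these weights stopped before it converged, with 0.0648 for S970A replicate 1 and 46.3 for S970A replicate 2. Weights by a gene-by-gene method, chosen after seeing the data, gave 0 genes, 2236 at an unadjusted p under 0.05 and a lowest limma adjusted p of 0.0806. With the replicate number as a block it was 0 genes, 2413 at an unadjusted p under 0.05 (1720 with the trend also removed); the numbers were not shown to mark pairs, and 4 of the 6 libraries correlated best with their own number.

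The sign of 3 named genes turned. Upf1 was 0.0772 with library weights, 0.0430 with gene-by-gene weights, 0.0359 without replicate 1 of both groups, and -0.286 to 0.0153 over single left-out libraries. Ago2 was 0.0447 with library weights, 0.0444 with gene-by-gene weights, 0.0514 without replicate 1 of both groups, and -0.496 to 0.140 over single left-out libraries. Fmr1 was 0.0654 with the trend removed, with and without the block. Of 1037 alternative values of 58 named genes, 976 kept direction and side of the threshold, and of 719 alternative list medians, 57 moved by more than the replicate spread. The causes were not tested.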
